A study of Homo sapiens with 8 samples.

Results

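The enzymes that make and balance the deoxynucleotides for DNA synthesis were followed in HTETOP cells through 8 genes: RRM1, RRM2, TYMS, DUT, DTYMK, TK1, DCK and CTPS1. The members were all probe sets whose platform annotation names one of these genes, 19 of the 54675 on the array, and 8 of the 19775 genes that a probe set names alone. HTETOP is 1 engineered line of HT1080 origin, a human fibrosarcoma; its topoisomerase II alpha (TOP2A) is under control of tetracyclines, which switch it off, and cells of every group shared this. One comparison set 1 array of cells given 1 µg/ml doxycycline against 1 vehicle array, and the other set 3 arrays of cells given 100 µM dexrazoxane, a bisdioxopiperazine inhibitor of topoisomerase II, against 3 arrays of their own vehicle. All treatments lasted 24 h, and each array carried RNA pooled from 3 passages of cells, passages 15 to 17 for the doxycycline pair. Separate cultures are not stated for the numbered arrays, so p-values reflect array-to-array spread alone, and that spread may be technical.

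Deoxynucleotides are made mainly by ribonucleotide reductase, which removes the 2′-hydroxyl group of ribonucleoside diphosphates and is built from a large catalytic subunit (RRM1) and a small radical-bearing subunit (RRM2). Thymidine nucleotides need further steps: dUTPase (DUT) hydrolyses dUTP to dUMP, thymidylate synthase (TYMS) methylates dUMP to dTMP, and thymidylate kinase (DTYMK) carries dTMP towards dTTP. Salvage kinases (TK1 for thymidine, DCK for deoxycytidine and purine deoxynucleosides) recycle nucleosides, and CTP synthase (CTPS1) supplies the cytidine branch. Several of these genes are transcribed mainly around S phase and are known targets of E2F factors.

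The arrays gave RMA values, which are log2 expression levels per probe set, so a difference of -1 is a halving. TOP2A served as the check of the labels: its brighter probe set (201291_s_at) read 11.98 on the doxycycline vehicle array and 6.02 with doxycycline, and 12.41, 12.55 and 12.40 on the dexrazoxane vehicle arrays against 11.20, 10.92 and 10.52 with dexrazoxane. Of 10 mesenchymal markers 9 lay above the median of their array on all 8 arrays, as did 2 of 6 epithelial markers (KRT5 and CLDN4), 2 of 4 measured leukocyte markers (CD3E and LCP1) and 1 of 5 endothelial markers (PECAM1). EPCAM, CDH1 and PTPRC lay below it on all 8. The mean level of the epithelial list was 4.66 to 4.81 on vehicle and 4.81 to 4.95 on dexrazoxane arrays, and the leukocyte and endothelial ranges overlapped; the part of such cells in the results was not tested. The array medians of the doxycycline pair (4.82 and 4.81) lay below those of the other 6 (5.49 to 5.57), so each treatment is read only against its own vehicle.

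Dexrazoxane lowered the transcripts of both ribonucleotide reductase subunits when arrays of the same number were compared as pairs. The labels do not state that such arrays belong together, and the pairing was inferred from these same data. In the planned comparison without pairing no enzyme passed the test. In the pairs RRM2 fell by 0.52 on the log2 scale (1.44-fold) and RRM1 by 0.36 (1.29-fold). The other 6 enzymes had differences of -0.28 to -0.05, and none passed the test. In this paired limma fit 2 of the 8 genes were called lower at an adjusted p under 0.05, where 2.44% of the 14731 genes tested were. Without the pairing limma called 0 of the 8 and 0% of all genes in either direction; RRM1 and RRM2 were the 2 members at an unadjusted p under 0.05, as were 5.19% of all genes tested. All 8 members lay below 0, with a median of -0.26, beside 45.4% of all genes tested and a median of 0.02. A lower level in bulk RNA cannot tell fewer cells that make a transcript from less of it per cell.

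RRM2 encodes the subunit whose synthesis and breakdown set the activity of the reductase through the cell cycle. Its probe set 209773_s_at read 11.78, 11.52 and 11.60 on vehicle arrays 1, 2 and 3, and 11.27, 11.07 and 10.99 on the dexrazoxane arrays of the same numbers. The 3 treated arrays were all below the 3 vehicle arrays. The means were 11.63 ± 0.137 (SD, n = 3) and 11.11 ± 0.145 (SD, n = 3), a difference of -0.52 ± 0.08 (SE of the paired fit; limma adjusted p = 0.0144 paired and 0.782 without pairing). The other RRM2 probe set (201890_at) read 11.85, 11.01 and 11.15 with vehicle and 11.49, 10.64 and 10.61 with dexrazoxane. Here number 1 stood well above 2 and 3 in each group and the groups overlapped, yet each treated array was below its own partner, by -0.36, -0.37 and -0.54.

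RRM1 encodes the large subunit, which holds the catalytic and allosteric sites. Its probe set 201477_s_at read 11.74, 11.44 and 11.44 with vehicle and 11.42, 11.13 and 10.98 with dexrazoxane, with no overlap. The means were 11.54 ± 0.172 (SD, n = 3) and 11.18 ± 0.225 (SD, n = 3), a difference of -0.36 ± 0.08 (SE; limma adjusted p = 0.0385 paired and 0.941 without pairing). A second RRM1 probe set (201476_s_at) read 8.49, 8.74 and 8.55 with vehicle against 8.11, 8.08 and 8.04 with dexrazoxane. These treated arrays lay close together and well under the vehicle arrays, for a difference of -0.52. Without pair 1 neither subunit passed the test (limma paired adjusted p = 0.12 for RRM1 and 0.066 for RRM2), and RRM1 also missed it without pair 3 (0.176) and without the filter on dim genes (0.0597).

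The start-site regions of both subunits are shown because theirs are the transcripts that passed the test; CCAAT, the box bound by NF-Y, and TTCCCGCC, an E2F-type motif, are in capitals. The RRM1 window is chr11:4094435-4094734 and the RRM2 window chr2:10122489-10122788, both on the + strand of GRCh38.p14 from RefSeq, covering 250 bases before to 50 after the annotated start.
RRM1: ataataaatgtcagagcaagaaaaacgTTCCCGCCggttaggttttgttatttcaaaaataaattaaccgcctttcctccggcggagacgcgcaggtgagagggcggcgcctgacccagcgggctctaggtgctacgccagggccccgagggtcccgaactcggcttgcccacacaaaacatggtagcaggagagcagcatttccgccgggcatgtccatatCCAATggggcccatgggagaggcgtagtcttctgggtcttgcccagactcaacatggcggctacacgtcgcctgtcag
RRM2: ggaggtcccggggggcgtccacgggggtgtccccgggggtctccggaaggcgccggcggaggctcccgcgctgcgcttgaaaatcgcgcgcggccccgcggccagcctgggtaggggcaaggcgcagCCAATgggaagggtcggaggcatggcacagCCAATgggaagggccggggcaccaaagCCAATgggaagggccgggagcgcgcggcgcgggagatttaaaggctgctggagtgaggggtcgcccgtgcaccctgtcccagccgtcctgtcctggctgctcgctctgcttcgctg
RefSeq lists 2 RRM2 windows, which overlap; the one shown, chosen because it holds more CCAAT boxes, has 3, at 123, 93 and 66 bases before the start, each followed by the same bases gggaaggg, and the other has 1, at 249 bases before its own start. The RRM1 window held 1 CCAAT and 1 TTCCCGCC. On both strands, 4 motifs were searched over the 14 RefSeq start-site windows of the 8 genes, namely CCAAT, TTCCCGCC, TTTGGCGC and TTTCGCGC. No match overlapped another. CCAAT stood in 5 of the 14 windows, near the share of 34.6% in all 35116 windows of that length. At least 1 of the other 3, all E2F-type, stood in 3 of the 14 (RRM1, DUT and DCK) and in 4.24% of all. Among the 16981 windows of genes tested the shares were 34.2% for CCAAT and 5.84% for any E2F-type motif. Some windows of 1 gene overlap, so they are not independent, and a match is not evidence of binding.

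**Figure D1:**
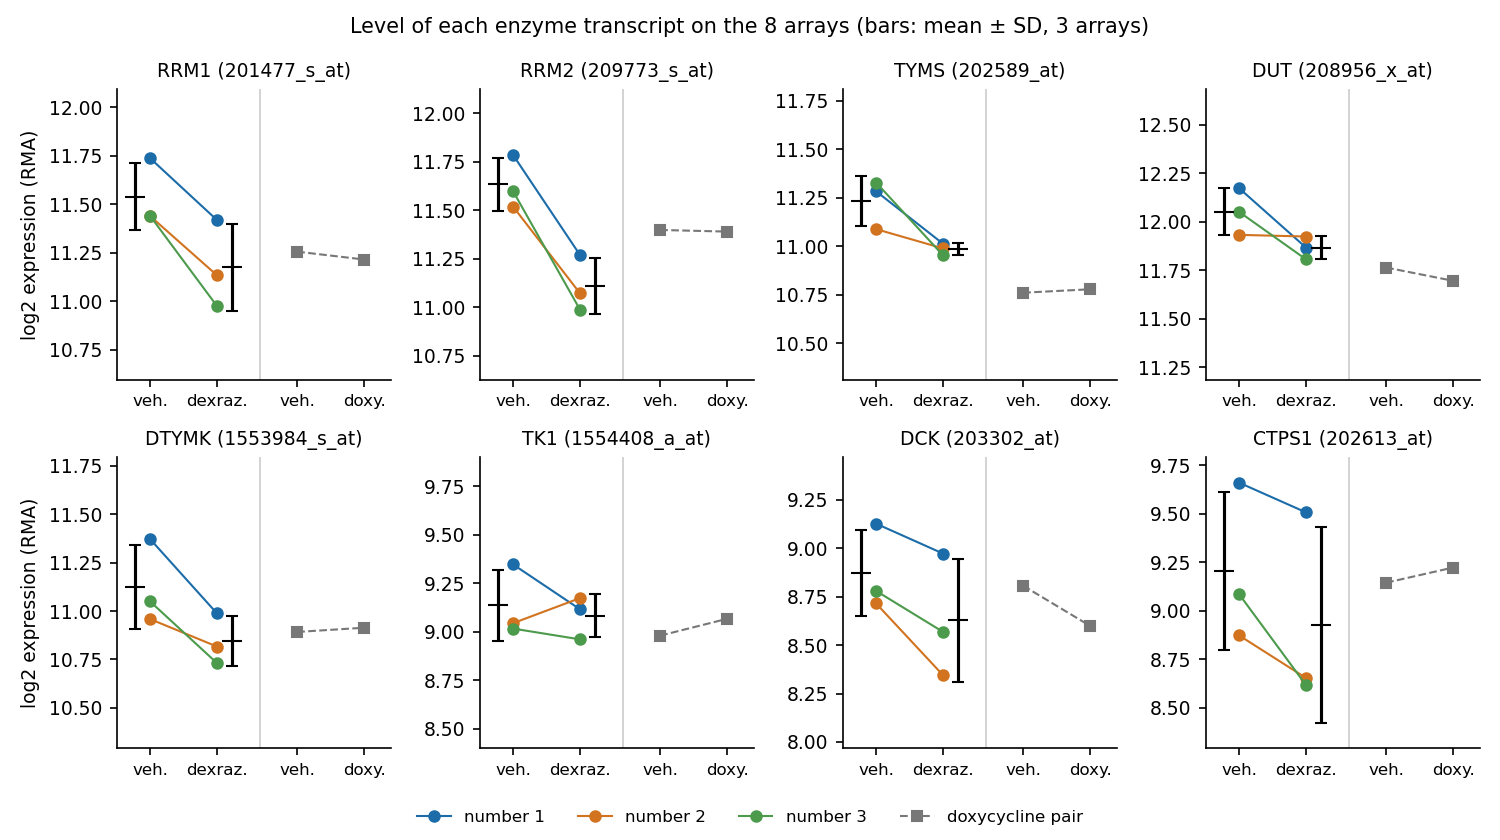
Log2 expression (RMA) of the probe set that stood for each enzyme gene: on the left of each panel the 3 vehicle and 3 dexrazoxane arrays, joined by number, with the mean ± SD beside them, and on the right the doxycycline pair. RRM1, RRM2, TYMS and DUT have all 3 treated arrays below all 3 vehicle arrays, while the arrays numbered 1 stand high in DCK and CTPS1; every panel spans the same log2 range.

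In the thymidylate branch no gene passed the test in either fit. With trended, robust variance in the paired limma fit TYMS, DUT and DTYMK did (adjusted p = 0.0116, 0.035 and 0.0053), as did every member but TK1 (0.752), where 5.78% of all genes were called lower. DTYMK also passed without pair 2 (limma paired adjusted p = 0.0431). TYMS and DUT had no overlap between treated and vehicle arrays, which with RRM1 and RRM2 makes 4 of 8 genes with all treated arrays lower, where 3.62% of all genes tested had that order. TYMS, the target of fluoropyrimidines, read 11.28, 11.09 and 11.33 with vehicle and 11.01, 10.99 and 10.95 with dexrazoxane (202589_at). That is a difference of -0.25 ± 0.08 (SE, n = 3 pairs; limma adjusted p = 0.124 paired and 1.00 without pairing). A second TYMS probe set (1554696_s_at) gave the same size, at 9.61, 9.53 and 9.52 against 9.34, 9.36 and 9.23, again with no overlap. The remaining one (217684_at) was dim, at 3.76 to 4.15 on these 6 arrays, with a mean below the filter and a difference of -0.03.

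DUT keeps uracil out of DNA by removing dUTP. Its probe set 208956_x_at read 12.17, 11.93 and 12.05 with vehicle and 11.87, 11.92 and 11.81 with dexrazoxane. The gap between the groups rested on pairs 1 and 3 (-0.31 and -0.24), since pair 2 differed by -0.01 (limma paired adjusted p = 0.242 for a mean of -0.19). The suffix _x_at marks probes that may also bind other transcripts. The plain probe set 208955_at, at 9.48, 8.94 and 9.04 against 9.21, 8.63 and 8.58, was lower in all 3 pairs, by -0.27, -0.31 and -0.46, although its groups overlapped. The third DUT probe set (209932_s_at) had a mean difference of -0.19 and pair 2 at 0.01.

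The start-site window of DUT with E2F-type motifs, 1 of 4 that RefSeq lists for this gene, is chr15:48331947-48332246 on the + strand. It is shown because it was the 1 member window with more than 1 kind of such motif: TTCCCGCC on the reverse strand (as GGCGGGAA) and TTTGGCGC, both in capitals and both within 50 bases before the start.
DUT: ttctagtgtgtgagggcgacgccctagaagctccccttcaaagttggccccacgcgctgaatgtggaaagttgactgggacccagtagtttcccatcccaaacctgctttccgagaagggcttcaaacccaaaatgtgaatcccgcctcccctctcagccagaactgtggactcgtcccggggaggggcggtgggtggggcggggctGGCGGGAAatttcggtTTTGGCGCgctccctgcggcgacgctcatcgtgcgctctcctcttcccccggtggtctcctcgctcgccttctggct
The other 3 DUT windows held none of the 4 motifs. TTTGGCGC stood in 0.652% and TTCCCGCC in 3.16% of all windows, and in 0.877% and 4.34% of the windows of genes tested.

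DTYMK makes dTDP from the products of TYMS and of TK1. The probe set that stood for it (1553984_s_at) read 11.37, 10.96 and 11.05 with vehicle and 10.99, 10.82 and 10.73 with dexrazoxane, a difference of -0.28 ± 0.08 (SE; limma adjusted p = 0.087 paired and 1.00 without pairing). The lower group overlapped the other because treated array 1 lay above vehicle array 2. Of its other 4 probe sets, 203270_at (-0.21) and 1553983_at (-0.17) were lower, and 1565694_at (0.08) and the dim 1565693_at (0.05) were not. With the mean of its 5 probe sets in place of the brightest the difference was -0.11.

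Neither salvage kinase passed the test in either fit, and the difference between them was not tested. TK1, whose protein is made in S phase and degraded in mitosis, had the smallest difference of the 8 genes. Its probe set 1554408_a_at read 9.35, 9.04 and 9.02 with vehicle and 9.12, 9.17 and 8.96 with dexrazoxane: vehicle array 1 stood above all others and the remaining 5 arrays spanned 8.96 to 9.17. The difference was -0.05, with a 95% interval of the paired fit from -0.26 to 0.15 (limma adjusted p = 0.774 paired and 1.00 without pairing), and it turned to 0.04 without pair 1. The second TK1 probe set (202338_at) differed by -0.03. DCK, which activates cytarabine and gemcitabine, read 9.13, 8.71 and 8.78 with vehicle and 8.97, 8.35 and 8.57 with dexrazoxane (203302_at). It was lower in each pair, by -0.15, -0.37 and -0.21, while the groups overlapped (limma adjusted p = 0.115 paired and 1.00 without pairing).

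TK1 is listed with 2 start sites, and the window of the one further downstream, chr17:78187003-78187302 on the - strand, is shown to set beside that of RRM2: it also holds CCAAT boxes, 2 on the reverse strand (as ATTGG, in capitals), 77 and 46 bases before the start.
TK1: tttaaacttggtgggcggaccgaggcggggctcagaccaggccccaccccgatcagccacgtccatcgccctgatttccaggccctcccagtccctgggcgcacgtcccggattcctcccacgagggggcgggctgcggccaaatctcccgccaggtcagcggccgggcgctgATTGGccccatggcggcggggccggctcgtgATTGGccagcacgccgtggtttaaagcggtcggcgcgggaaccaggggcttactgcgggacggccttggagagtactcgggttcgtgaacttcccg
The other TK1 window held none of the 4 motifs. The DTYMK window, not shown, also held 2 CCAAT boxes, 92 and 24 bases before the start.

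CTPS1, which aminates UTP to CTP, read 9.66, 8.87 and 9.09 with vehicle and 9.51, 8.65 and 8.62 with dexrazoxane (202613_at). Arrays of number 1 stood 0.78 above the mean of the others, more than the treatment difference of -0.28 (limma adjusted p = 0.103 paired and 1.00 without pairing). Each treated array was below its partner, by -0.15, -0.22 and -0.47.

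Height of the arrays numbered 1 was shared by many members. Vehicle array 1 was the highest of its group for 14 of the 19 probe sets and dexrazoxane array 1 for 13, with 10 in common. For 11 probe sets the gap between number 1 and the other numbers was larger in size than the treatment difference, whichever way it ran. Among these 11, TYMS 217684_at and DTYMK 1565693_at had number 1 below the others (-0.18 and -0.06). The counts above have no share over all probe sets beside them, so they are not read as particular to the members. The median gap was 0.18 over the 19 probe sets, some of which share a gene. It was 0.01 over all genes tested, each by 1 probe set (SD 0.322). In the same arrays the ACTB control probe sets for the 3′ end exceeded those for the 5′ end by 0.11 and 0.10, against -0.04 to 0.08 on the other 4, whereas those for GAPDH gave -0.07 and -0.06 against -0.10 to -0.06; the part of this in the gap was not tested.

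Tested one by one among all 41097 probe sets with 1 gene symbol and with no filter, 0 of the 19 were called by limma, paired or not. The background was 0.204% called lower in the paired fit and 0.00243% called without it. At an unadjusted p under 0.05 there were 10 paired and 3 unpaired, beside 14.7% and 4.01% of all probe sets. The smallest paired adjusted p was 0.0524, for RRM2 209773_s_at, followed by 0.0585 for RRM1 201476_s_at. With the 40th percentile filter applied to the whole array, which 17 of the 19 passed, 2 were called lower in the paired fit. The background was then 0.994% of the 27264 probe sets tested. Those called were RRM2 209773_s_at and RRM1 201476_s_at. RRM1 201477_s_at, which stood for its gene in the gene test, was not called, nor was RRM2 201890_at. Of the 19 probe sets 17 lay below 0, beside 49.3% of all, and 6 had all treated arrays below all vehicle arrays, beside 4.05%.

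**Figure D2:**
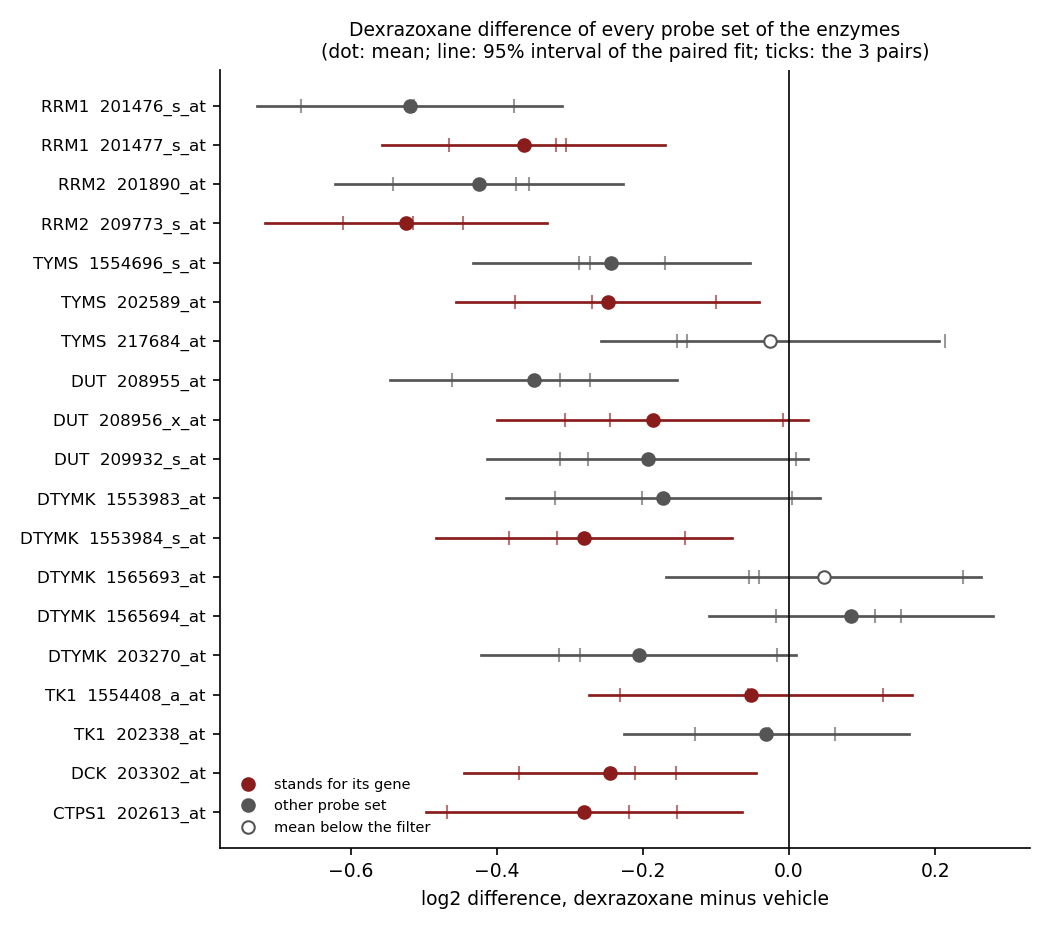
Log2 difference of dexrazoxane from vehicle for each of the 19 probe sets, with the mean of the 3 pairs (dot), its 95% interval in the paired fit over all probe sets (line) and the single pairs (ticks). The 4 probe sets of RRM1 and RRM2 lie between -0.52 and -0.36, those of TK1 at -0.05 and -0.03, and 2 DTYMK probe sets lie above 0.

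Among the probe sets that stood for the member genes, the difference of RRM2 was the furthest below 0 in all 3 pairs. The gap between the differences of RRM2 and TK1 was -0.47, and by pair -0.28, -0.58 and -0.55. The gap between RRM2 and RRM1 was the narrowest, at -0.16, and their order depended on the probe set. The second RRM1 probe set (201476_s_at) differed by -0.38, -0.67 and -0.51 by pair. In pair 2 that was further below 0 than RRM2 209773_s_at (-0.45). With the mean of probe sets the paired differences were -0.47 for RRM2 and -0.44 for RRM1. RRM2 is singled out here for its difference, so these gaps are a description with no test.

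Other genes of nucleotide metabolism did not move as a block. Of 46 tested genes outside the 8 enzymes, 1 was called higher and 2 lower in the paired limma fit and 0 without pairing. Of all 14731 genes tested 357 were called higher and 360 lower in the paired fit. The calls among the 46 were near that background. The median of the 46 was -0.01, beside 0.02 over all genes tested. In deoxynucleotide salvage and turnover (13 genes, median 0.10) CDA, the cytidine deaminase that removes deoxycytidine, rose by 0.46 ± 0.09 (SE, n = 3 pairs; limma paired adjusted p = 0.0329, and 0.854 without pairing). NT5C, a nucleotidase that dephosphorylates deoxynucleotides, fell by 0.36 ± 0.07 (0.0346 and 1.00). The mitochondrial thymidine kinase TK2 (0.28) and the adenosine deaminase ADA (0.21) were not called. RRM2B, the p53-inducible small subunit of the reductase, was looked up for its relation to RRM2 and not by the rule for named genes. It read 9.10, 9.70 and 9.52 with vehicle and 9.43, 9.76 and 9.64 with dexrazoxane, higher in each pair by 0.34, 0.06 and 0.12, and was not called (0.17, limma paired adjusted p = 0.269).

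De novo purine synthesis had a median of -0.19 over 12 genes, of which 10 lay below 0, beside 45.4% of all genes tested. PAICS, which carries out consecutive steps of the pathway, fell by 0.34 ± 0.07 (limma adjusted p = 0.0418 paired and 0.941 without pairing), and PPAT (-0.26), GART (-0.20) and PRPS2 (-0.19) were not called. No gene was called among 8 of the folate cycle that serves thymidylate synthesis (median -0.09; MTHFD2 -0.31, the folate carrier SLC19A1 -0.30, SHMT2 -0.15 and MTHFD1 -0.10), among 9 nucleoside mono- and diphosphate kinases (median 0.05; NME6 0.23, GUK1 0.22, NME4 0.14 and CMPK2 -0.21) or among 4 of de novo pyrimidine synthesis (median -0.04; CTPS2 0.15, CAD -0.13, UMPS -0.09 and DHODH -0.003). CDA, NT5C and PAICS lost their calls without pair 1 (limma paired adjusted p of 0.093, 0.12 and 0.122), NT5C also without pair 3 (0.0977), and PAICS without pair 2 (0.0632) or pair 3 (0.151). Without the filter NT5C (0.055) and PAICS (0.0673) were not called.

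Genes of the replication fork and of origin licensing and firing were lower with dexrazoxane in the paired fit. Of 20 replication fork and origin genes 16 were called lower and 0 higher in the paired limma fit (0 without pairing). Of all genes tested 2.44% were called lower in the paired fit. The median of the list was -0.51, about the size of RRM2 and beyond the other 7 enzymes by the probe sets that stood for them. The second RRM1 probe set (201476_s_at) differed by -0.52. The genes called lower included the clamp loader subunit RFC4 (-0.51) and GINS1, CDC45 and CDC6 (-0.56, -0.60 and -0.58) of helicase loading and assembly. PCNA, the sliding clamp, is named as the 1 gene of the list above 0 (0.13, not called). Without pairs 1, 2 and 3 in turn there were 3, 16 and 10 calls, beside 56, 414 and 200 of all 14731 genes called lower. The medians of the list were then -0.47, -0.53 and -0.45. The list, like the enzymes, was chosen with earlier results of these data known, so its calls are a description. They also rest on the pairing inferred from these same arrays. The difference between the lists was not tested.

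**Figure D3:**
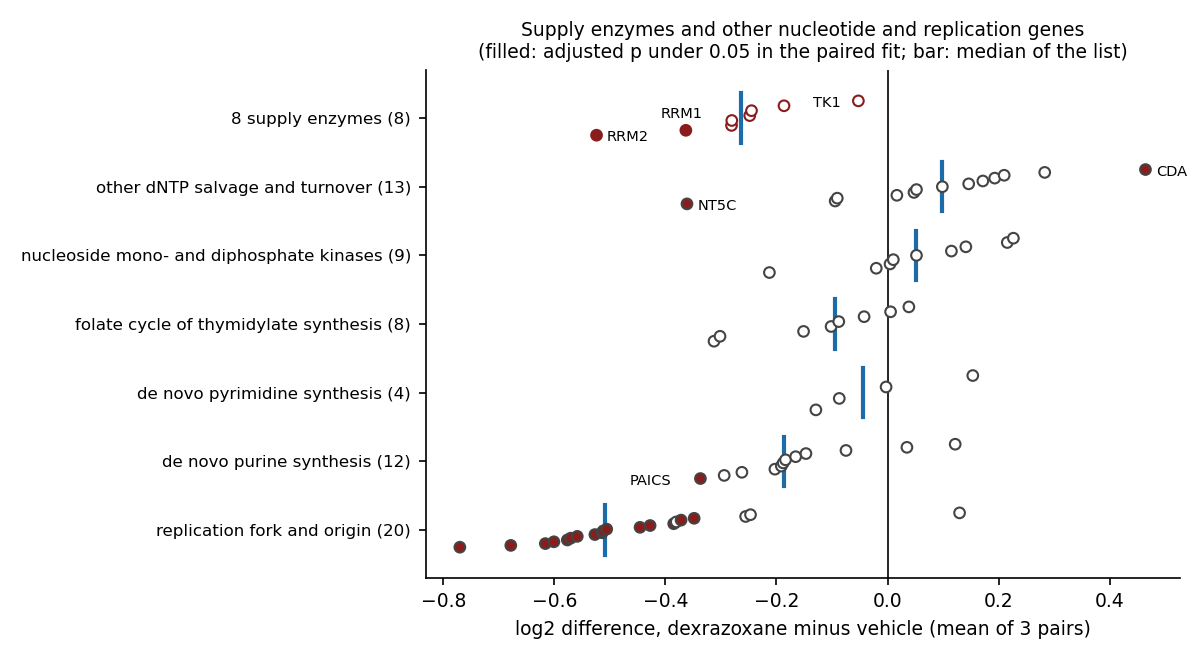
Log2 difference of dexrazoxane from vehicle (mean of 3 pairs) for the 8 enzymes, 5 lists of other nucleotide genes and 20 replication genes, with filled dots for a limma adjusted p under 0.05 in the paired fit and a bar at each median. RRM1 and RRM2 are the filled dots among the enzymes; the medians run from -0.51 for replication genes to 0.10 for other salvage and turnover genes.

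Over the 6 arrays of the dexrazoxane comparison the genes whose levels followed RRM2 most closely were TMEM116, ADAMTS18 and HNRNPAB (Pearson r of 0.992, 0.991 and 0.990, n = 6 arrays). For TYMS they were MAGOHB, PLAC8 and GCSH (0.991, 0.990 and 0.983). They are the top of 14731 genes and the arrays share numbers and treatment, so the correlations are descriptions only.

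With TOP2A silenced by doxycycline the differences of the 8 enzymes ran from -0.21 to 0.09. None was 1.2-fold higher or lower, which is close to the background, since 3.43% of the genes tested were at least 1.2-fold lower and 2.5% at least 1.2-fold higher. The median of the 8 was 0.005, with 4 below 0, beside a median of 0.02 over all genes. There is 1 array per group, so no difference has an error or a test; the SD of the differences over all genes was 0.146, and DCK was the 1 enzyme beyond it.

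RRM2 read 11.40 on the vehicle array and 11.39 with doxycycline, and RRM1 11.26 and 11.22, so the 2 genes that passed the paired test with dexrazoxane were at -0.01 and -0.04. TYMS read 10.76 and 10.78 and DTYMK 10.89 and 10.91 (both 0.02), and DUT 11.76 and 11.70 (-0.07). DCK had the largest difference of the 8, with 8.81 against 8.60 (-0.21), and CTPS1 (9.14 and 9.22) and TK1 (8.98 and 9.07) lay slightly above vehicle. The other probe sets of the members differed by -0.11 to 0.19, the highest being the DTYMK probe set 1565694_at at 5.03 and 5.22. Whether the enzymes respond differently to the 2 treatments was not tested.

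**Figure D4:**
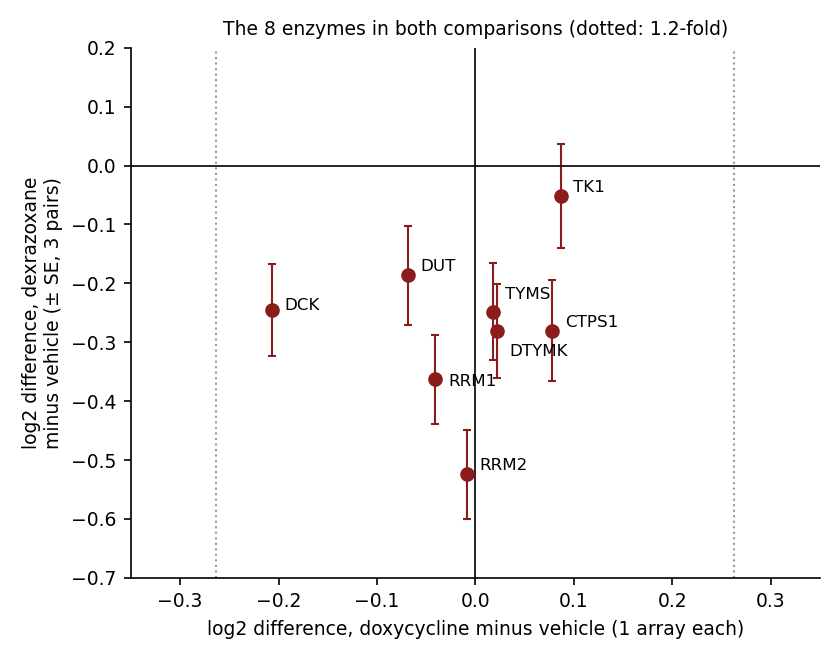
Log2 difference with doxycycline (1 array per group, x axis) and with dexrazoxane (mean of 3 pairs ± SE of the paired fit, y axis) for the 8 enzymes; dotted lines mark 1.2-fold. All points lie within the dotted lines on the x axis, while on the y axis RRM2 is lowest at -0.52 and TK1 highest at -0.05.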

How the data were processed

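The deposited values are log2 levels of probe sets, which the authors made by RMA, per the submitters' processing notes; no source used here says if 1 RMA run covered all 8. Probe sets were named through the supplied platform annotation (41097 carry 1 symbol), with symbols updated by Entrez identifier through RefSeq (GRCh38.p14). Each gene was represented by its brightest probe set (mean of 8 arrays), and tested if that mean was at or over the 40th percentile on the array (4.83), as for 14731 of 19775 genes; all 8 members passed.

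Dexrazoxane was compared with limma 3.58.1 in R 4.3.3 (two-sided, Benjamini-Hochberg over all genes), planned without a block. Deviations from group means correlated at 0.823, 0.574 and 0.716 between same-numbered arrays (-0.629 to 0.181 otherwise), so a paired fit stands beside it; its calls rest on a pairing checked in these data. Simulated arrays, built with a shared level for arrays of the same number, served only to check the code of the fits. They cannot test the pairing. Members and lists were chosen with earlier results of these data known. The rule for named genes took all members, TOP2A, up to 4 genes per list by p in the unpaired fit, and the 3 genes most correlated with RRM2 and with TYMS. The number of arrays limits the precision. RefSeq start-site windows were searched for fixed motifs.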

Additional observations from a re-analysis of the deposited data

How the results depend on the processing

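Alternatives for genes outside the 8 enzymes, and calls per list with a pair left out, were chosen after seeing the data. The calls among the 8 enzymes turned on the pairing. Without it there were 0 under every filter, probe set rule, scaling and variance model run and with any 1 array left out (0 to 0). With the replicate block 2 were called, and still 2 with the 60th percentile filter, the mean of probe sets, median-centred arrays or renewed quantile normalization. No filter gave 1. Trended, robust variance gave 7, which are all but TK1, and in that fit 5.78% of all genes tested were called lower. Leaving out pairs 1, 2 and 3 in turn gave 0, 3 and 1, beside 56, 414 and 200 of all 14731 genes called lower. With all pairs kept 360 of the 14731 were called lower, so the number of calls over all genes also changed with the pair left out. For probe sets the replicate block gave 0 calls of 19, the same with median-centred arrays, 2 with the 40th percentile filter and 1 without pair 2. Filters change the number of features adjusted over, and a left-out pair leaves 4 arrays. Beyond that, the cause was not tested. RRM1 and RRM2 stayed below 0 in each of 9 paired alternatives, from -0.44 to -0.31 and from -0.56 to -0.47.

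Some differences of genes that were not called changed sign. Without pair 1 the paired difference was 0.0368 for TK1 (its probe set 1554408_a_at included), 0.0194 for DHODH, 0.0373 for 217684_at (TYMS), -0.0476 for 1565693_at (DTYMK) and 0.0177 for 202338_at (TK1); without pair 3 it was 0.0112 for DHODH, and without pair 2 it was 0.0305 for 217684_at. With 1 array left out and no pairing the ranges were -0.1122 to 0.0531 for TK1 and 1554408_a_at, -0.1462 to 0.133 for 202338_at, -0.088 to 0.0645 for 217684_at, -0.0184 to 0.1117 for 1565693_at, -0.2308 to 0.051 for MTHFD1, -0.2477 to 0.0693 for CAD, -0.1806 to 0.0058 for UMPS and -0.0437 to 0.0524 for DHODH. No doxycycline difference of an enzyme moved by 0.1 or past 1.2-fold under the 4 alternatives run.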
